A study of Mus musculus with 11 samples.

Results

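Eph receptors and ephrins, a family of contact-dependent guidance proteins, were examined in ribosome-bound RNA of mouse Purkinje cells. The 10 genes are the receptor genes Epha4, Epha5, Epha6, Epha7, Epha8, Epha10, Ephb1 and Ephb2 and the ligand genes Efna5 and Efnb3, found by their symbol among 55421 listed genes, and 9 of them had enough reads to be tested. The series compared 4 knockout mice, labelled Pcp2Cre;Tie2flox/flox;Rpl22HA/HA, with 7 control mice, labelled Pcp2Cre;Rpl22HA/HA, at postnatal day 56. All 11 mice carried Cre recombinase under the Pcp2 promoter, which is active in Purkinje cells, and the Rpl22HA/HA allele, which Cre turns into a tagged ribosomal protein. The tagged ribosomes were pulled down from whole cerebellum with an antibody against the tag, and 1 library was made per mouse. The knockouts also carried floxed alleles of Tie2, the angiopoietin receptor encoded by Tek, and no library from mice with floxed alleles but without Cre was analysed here. By their labels the animals fall into 3 batches: batch 1 holds 2 knockouts and 1 control, batch 2 holds 1 of each, and batch 3 holds 1 knockout and 5 controls. Each library is called by its genotype and the tag of its mouse.

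Eph receptors form the largest family of receptor tyrosine kinases, and their ligands, the ephrins, are held in the membrane of the neighbouring cell. EphA receptors mainly bind ephrin-A ligands, which hang on a lipid anchor, and EphB receptors mainly bind ephrin-B ligands, which span the membrane. Binding sends a forward signal into the receptor cell, through small GTPases and non-receptor kinases, and a reverse signal into the ligand cell. In the cerebellum the family is known for its part in sorting afferent axons and in the contacts between Purkinje cell spines, climbing fibres and Bergmann glia.

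The libraries held 2583227 to 4199299 reads in genes in the knockouts and 4087197 to 5142671 in the controls. Of 20 Purkinje cell markers 5 rose and 4 fell (Lhx1, Gad2, Cacna1g and Homer3). All 20 summed to 7324 to 9935 CPM in knockouts and 7584 to 9020 CPM in controls. Calb1, a calcium buffer and 1 of the 5 that rose, had 864 to 1159 CPM in knockouts and 728 to 879 CPM in controls. CPM is a gene's reads scaled by the library's reads in genes and its TMM factor. Tek, the targeted gene, had 0, 7, 0 and 14 reads in knockouts F371, M374, M390 and M456 and 0 to 40 in the controls, too few to check the labels. Several marker lists of other cell types were mostly higher in the knockouts, and the part of these cells in the results was not tested. Across all tested genes 24.4% were called by the test given below, 10.9% as higher and 13.4% as lower. The called share was 45% of Purkinje cell, 64.3% of granule cell, 64.7% of Bergmann glia and astrocyte and 17.6% of oligodendrocyte markers. It was 33.3% of interneuron and unipolar brush cell, 33.3% of microglia and 7.69% of endothelial and mural markers. Of 14 granule cell markers 9 rose and 0 fell, with summed levels of 713 to 1911 CPM in knockouts and 534 to 1059 CPM in controls. Of 17 Bergmann glia and astrocyte markers 10 rose and 1 fell (1233 to 2209 CPM in knockouts and 1138 to 1397 CPM in controls). In this sum Aldoc alone averaged 439 CPM in knockouts and 454 CPM in controls, and Sept4, the marker that fell, 186 and 234 CPM. Of 17 tested oligodendrocyte markers 3 rose and 0 fell (500 to 1229 CPM in knockouts and 442 to 909 CPM in controls). Of 9 tested markers of interneurons and unipolar brush cells 3 rose and 0 fell (669 to 781 CPM in knockouts and 572 to 759 CPM in controls). Most of this sum came from Nrk, at a mean of 394 CPM in knockouts and 428 CPM in controls, and it did not pass the test. Of 9 tested microglia markers 3 rose and 0 fell (25.3 to 130 CPM in knockouts and 37.6 to 69.4 CPM in controls), and of 13 tested endothelial and mural markers 1 rose and 0 fell. No marker in these lists was at 0 in all libraries. In pulled-down RNA, a change in the number of tagged cells and a change in RNA per cell cannot be told apart.

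Of the 9 tested genes 3 differed between knockouts and controls. Ephb1 and Efnb3 rose, Epha8 fell, and the other 6 had an adjusted p above 0.05 (edgeR's quasi-likelihood method, batch and genotype in 1 model, Benjamini-Hochberg over 13375 genes). Across all tested genes 24.4% passed, 10.9% as higher and 13.4% as lower in the knockouts, so 3 of 9 is a share close to the background of these libraries. The median log2 fold change of the 9 genes was -0.02, the same to 2 decimals as that of all tested genes at -0.02. The plot of levels by library shows that the genes did not move as a block.

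**Figure D1:**
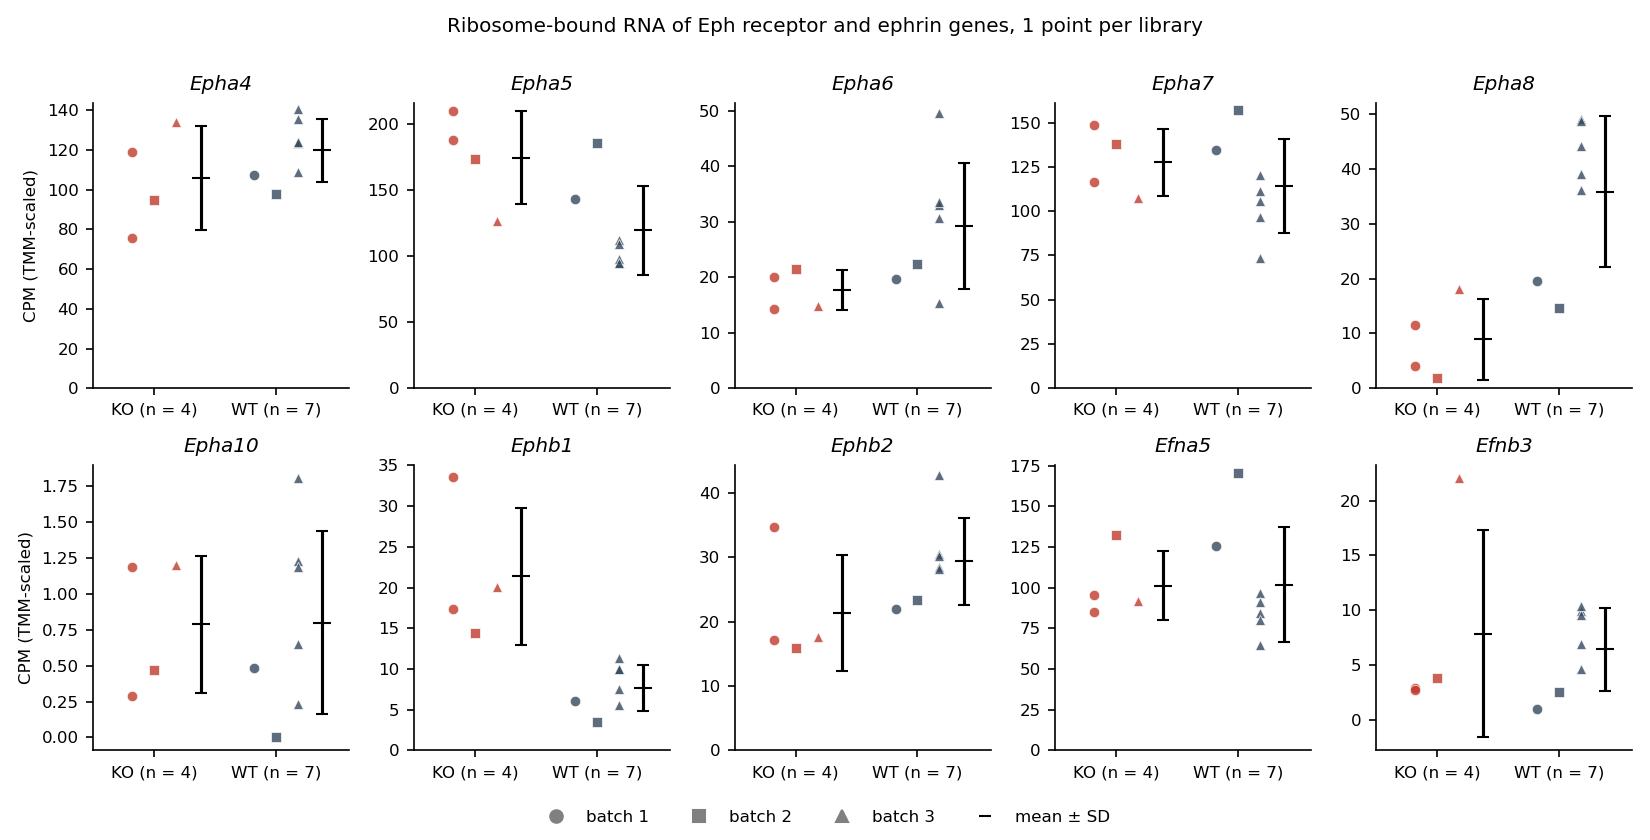
Levels of the 10 genes in CPM (vertical axis, linear, own scale per panel) in each knockout (KO) and control (WT) library, with the point shape giving the batch and the bar the mean ± SD. Ephb1 points of the 4 knockouts lie at 14.4 to 33.6 CPM, all above the control points at 3.47 to 11.3 CPM, and in Epha8 the control points of batch 3, at 36.1 to 49.0 CPM, lie above every other point.

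Epha8, a receptor of ephrin-A ligands, was the member that fell. It lies on chromosome 4 from 136929419 to 136956859 (GRCm38, RefSeq annotation). It had 4.06, 11.6, 1.89 and 18.1 CPM in knockouts F371, M374, M390 and M456, from 14, 39, 8 and 45 reads. The controls had 19.5 CPM in M379, 14.6 CPM in M386 and 36.1 to 49.0 CPM in the 5 controls of batch 3, with a median of 39.1 CPM over all 7. Each knockout was below every control of its own batch, but knockout M456 was above control M386 of another batch, so the groups overlapped. The mean was 8.90 ± 7.39 CPM in knockouts and 35.9 ± 13.8 CPM in controls (SD, n = 4 and 7, not adjusted for batch). The fitted log2 fold change was -1.59 ± 0.34 (SE; 95% interval -2.31 to -0.88; edgeR adjusted p = 0.00523), a knockout level 0.332 times that of controls. The call was kept without any single library, at adjusted p of 0.0049 to 0.0488.

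Ephb1, a receptor of ephrin-B ligands that is best known for guiding retinal axons at the optic chiasm, was the member that rose most. It lies on chromosome 9 from 101922128 to 102354693. It had 17.4, 33.6, 14.4 and 20.1 CPM in knockouts F371, M374, M390 and M456, from 50 to 113 reads each. The controls had 3.47 to 11.3 CPM with a median of 7.54 CPM, from 15 to 52 reads each. The groups did not overlap. Such separation was seen in 13.0% of all tested genes, and with the knockouts on top in 6.20%. Knockouts averaged 21.4 ± 8.45 CPM and controls 7.70 ± 2.85 CPM (SD, n = 4 and 7). The fit gave a log2 fold change of 1.69 ± 0.37 (SE; 95% interval 0.90 to 2.48; edgeR adjusted p = 0.00616), a 3.23-fold higher level. Without control M379, the only control of batch 1, the log2 fold change was 1.51 and the adjusted p = 0.0535.

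The promoters of Epha8 and Ephb1, which moved in opposite directions, differ in base composition. RefSeq's promoter windows (GRCm38.p6, both genes on the minus strand, read 5′ to 3′ along the gene) hold the 250 bases before 1 transcript start per gene, chr4:136956817-136957066 for Epha8 and chr9:102354694-102354943 for Ephb1. The last 43 bases of the Epha8 window lie inside the gene as annotated, whose span starts further upstream, and are not printed. The other 207 bases, chr4:136956860-136957066, and the whole Ephb1 window are given here to show the composition, with matches to the searched motifs in capitals.
Epha8: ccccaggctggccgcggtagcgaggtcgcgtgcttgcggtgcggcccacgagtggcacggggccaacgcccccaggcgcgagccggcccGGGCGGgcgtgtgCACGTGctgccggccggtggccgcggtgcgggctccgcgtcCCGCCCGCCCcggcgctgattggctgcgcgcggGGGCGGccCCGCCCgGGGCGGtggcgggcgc
Ephb1: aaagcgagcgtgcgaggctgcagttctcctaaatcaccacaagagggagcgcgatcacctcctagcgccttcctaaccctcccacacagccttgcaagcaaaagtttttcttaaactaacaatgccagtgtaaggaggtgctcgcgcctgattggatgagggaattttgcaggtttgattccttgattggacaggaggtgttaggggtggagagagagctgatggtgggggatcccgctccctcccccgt
The Epha8 window of 250 bases is 84.0% G and C, with a CpG observed over expected ratio of 1.05. The Ephb1 window is 54.0% G and C with a ratio of 0.551, and the medians of 27025 promoter windows are 52.0% and 0.378. Of 5 motifs searched on both strands, the GC box GGGCGG matched 6 times in Epha8 and 0 times in Ephb1, and 32.9% of all windows hold at least 1 match. The E-box CANNTG matched once in Epha8, as CACGTG, and 0 times in Ephb1 (66.0% of all windows). The FoxO core GTAAACA, the ROR half-site AGGTCA and the TATA box TATAAA matched in neither (3.09%, 13.8% and 13.0% of all windows). No match overlapped a match of another motif, and a pair of the GC boxes in Epha8 overlap each other. Windows were found for 9 of the 10 genes. Their G and C content was 54.0% in Ephb1, the lowest of the 9, and 62.4% to 84.0% in the others.

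In each of the 3 batches the ratios of Epha8 and Ephb1 were larger in size than the medians of the genes called in the same direction. In batch 2 the 1461 genes called higher had a median log2 ratio of 0.20 (0.82 in batch 1 and 0.87 in batch 3). The 1796 genes called lower had a median of -0.25 in batch 2 (-0.998 and -1.06). Ephb1 had log2 ratios of 1.99, 1.91 and 1.13 in batches 1, 2 and 3. Epha8 had -1.27, -2.66 and -1.24, and its value in batch 2 rests on 8 reads in knockout M390. Batch 2 holds 1 knockout and 1 control, so its ratios have no replicate check, and the calls rest on the same libraries. Every knockout lay on the same side of every control of its batch, in all 3 batches, for Epha8, Ephb1 and Efnb3. This held for 34.2% of all tested genes.

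**Figure D2:**
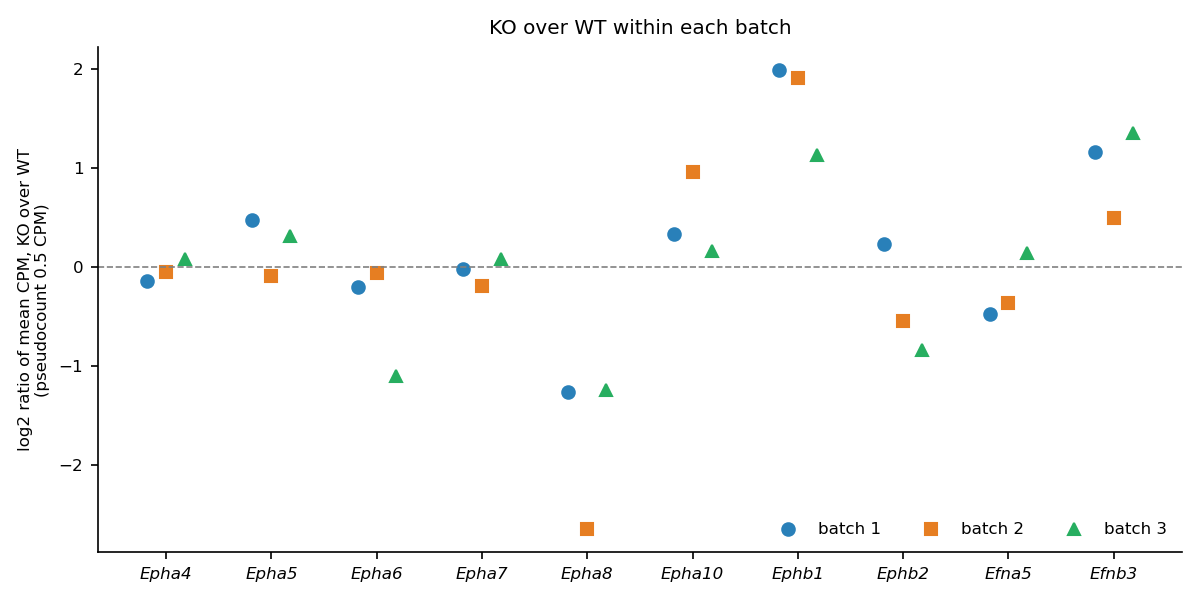
Log2 ratio of the mean CPM of knockouts over controls (vertical axis, pseudocount 0.5 CPM) within each batch for the 10 genes, 1 point per batch and gene, with a dashed line at no difference. Ephb1, Efnb3 and Epha10 (from few reads) are above the line in the 3 batches, and Epha8 and Epha6 below it. Epha4, Epha5, Epha7, Ephb2 and Efna5 have points on both sides. Among all tested genes 48.5% have 1 sign in all 3 batches.

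The ratio of reads of 1 gene to those of another within a library does not depend on scaling. Reads of Ephb1 over reads of Epha8 were 4.29, 2.90, 7.63 and 1.11 in knockouts F371, M374, M390 and M456. In the 7 controls the ratio was 0.155 to 0.309 with a median of 0.226. Every knockout was above every control. Read counts are not scaled by gene length, so the ratio compares libraries and not the levels of the genes. This pair was chosen after its values were seen and the ratio is given as a description. Of the other ratios taken, Ephb1 over Ephb2, given further below, did not overlap between the groups either. The ratios that follow did overlap. Epha8 over Epha4 was 0.020 to 0.154 in knockouts and 0.149 to 0.397 in controls. Epha5 over Efna5 was 1.31 to 2.21 and 1.01 to 1.73, and Epha5 over Epha7 was 1.18 to 1.81 and 0.789 to 1.53.

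**Figure D3:**
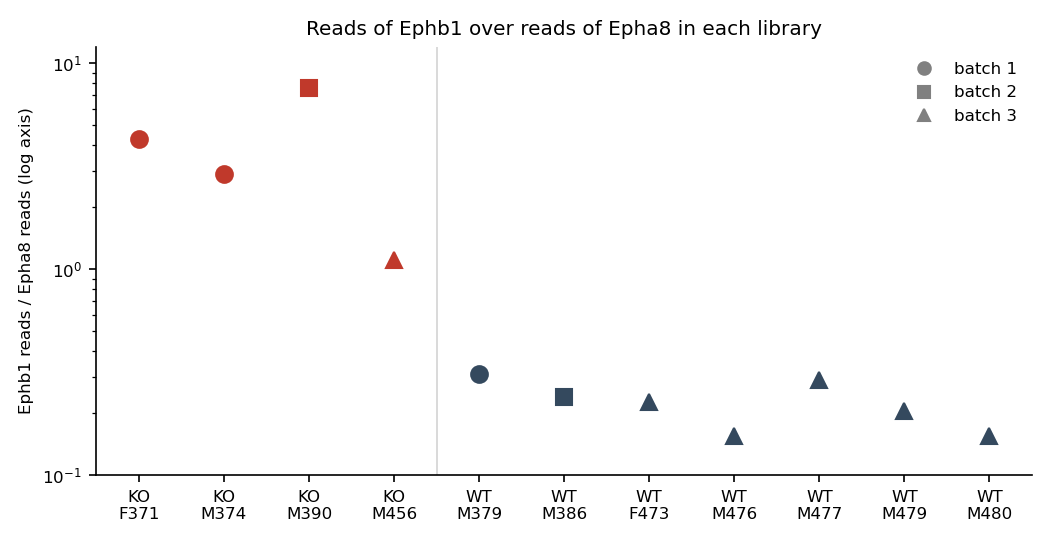
Reads of Ephb1 divided by reads of Epha8 (vertical axis, log scale) in each of the 4 knockout (KO) and 7 control (WT) libraries, with the shape giving the batch. Knockouts lie at 1.11 to 7.63 and controls at 0.155 to 0.309.

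The other EphA receptors did not pass the test. Epha4, which binds ephrins of both classes, had 119, 75.4, 94.5 and 134 CPM in knockouts F371, M374, M390 and M456, and 97.6 to 140 CPM with a median of 124 CPM in controls. Its log2 fold change was -0.02 (95% interval -0.33 to 0.28, edgeR adjusted p = 0.92). Epha7, a receptor of ephrin-A ligands, had 116, 149, 138 and 108 CPM in the same knockouts and 73.7 to 157 CPM with a median of 111 CPM in controls. Its log2 fold change was also -0.02 (-0.34 to 0.30, adjusted p = 0.93). For both genes the intervals leave room for differences of up to about 0.34 on the log2 scale in either direction, and the sign of the estimate changed between settings.

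Epha5, a receptor of ephrin-A ligands, had 210, 188, 174 and 127 CPM in knockouts F371, M374, M390 and M456. The controls had 143 CPM in M379, 186 CPM in M386 and 94.9 to 113 CPM in batch 3. Knockouts were above the controls in batches 1 and 3 and below the control in batch 2, with log2 ratios of 0.47, -0.09 and 0.31. Its fold change, 0.26 ± 0.12 on the log2 scale (SE; 0.00 to 0.52), did not pass (edgeR adjusted p = 0.12). It passed without knockout M390 (log2 fold change 0.42, adjusted p = 0.0260) and without control M386 (0.42, adjusted p = 0.0245), the only libraries of batch 2.

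Epha6, a further receptor of ephrin-A ligands, had 20.02, 14.3, 21.5 and 14.9 CPM in knockouts F371, M374, M390 and M456, and 15.4 to 49.6 CPM with a median of 30.7 CPM in controls. Its log2 fold change of -0.51 (-1.25 to 0.23) did not pass (edgeR adjusted p = 0.30), and its within-batch values were log2 ratios of -0.20, -0.06 and -1.10 in batches 1, 2 and 3. Controls averaged 32.4 CPM in batch 3, against 19.8 CPM in batch 1 and 22.4 CPM in batch 2. Epha10, which encodes a receptor with an inactive kinase domain, had 1, 4, 2 and 3 reads in the knockouts and 0 to 8 reads in the controls. It was at or close to the floor of 3 counts, which is 0.709 to 1.20 CPM in the knockouts and 0.595 to 0.723 CPM in the controls, and no difference was detectable at this depth. With looser filters that let it enter the test, its log2 fold change was 0.77 to 0.79 and did not pass.

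Ephb2, which binds ephrin-B ligands and also ephrin-A5, had 17.1, 34.7, 15.8 and 17.7 CPM in knockouts F371, M374, M390 and M456. The controls had 21.9 to 42.8 CPM with a median of 28.5 CPM, so 3 knockouts were below every control and knockout M374 was above 6 of the 7. The log2 fold change was -0.40 ± 0.30 (SE; -1.04 to 0.24; edgeR adjusted p = 0.35). Reads of Ephb1 were 0.910 to 1.14 times those of Ephb2 in knockouts and 0.130 to 0.371 times in controls. This ratio is also a description, and of this pair only Ephb1 passed the test. Ephb2 lies 93.1 kb from Epha8 on chromosome 4, with 3 protein-coding genes of the complement C1q complex, C1qa, C1qb and C1qc, between them. C1qa rose with a log2 fold change of 1.30 ± 0.45 (edgeR adjusted p = 0.0481), while C1qb at 0.20 ± 0.65 and C1qc at 1.51 ± 0.58 did not pass. Chromosome 4 holds 4 of the 10 genes and also Tek, which lies 42.1 Mb from Epha8.

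Among the ligands, Efna5, which encodes the lipid-anchored ephrin-A5, had 95.2, 85.2, 132 and 92.0 CPM in knockouts F371, M374, M390 and M456. The controls had 126 CPM in M379, 170 CPM in M386 and 64.9 to 96.7 CPM in batch 3. The fit gave a log2 fold change of -0.20 ± 0.15 (SE; -0.52 to 0.13; edgeR adjusted p = 0.36), with log2 ratios of -0.47, -0.36 and 0.14 in batches 1, 2 and 3.

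Efnb3, which encodes the membrane-spanning ephrin-B3 known as a midline barrier to corticospinal axons, rose by a small margin of the test. It had 2.90, 2.67, 3.78 and 22.1 CPM in knockouts F371, M374, M390 and M456, from 10, 9, 16 and 55 reads. The controls had 0.964 CPM in M379, 2.54 CPM in M386 and 4.65 to 10.4 CPM in batch 3. The values of M379 and M386 come from 4 and 11 reads. Levels in batches 1 and 2 thus rest on few reads, and M379 is close to the floor of 3 counts. The group means of 7.86 ± 9.50 CPM in knockouts and 6.43 ± 3.80 CPM in controls (SD, n = 4 and 7) were close. Batches 1 and 2, with 3 of 4 knockouts and 2 of 7 controls, were below batch 3 in both groups. The fitted log2 fold change was 1.23 ± 0.42 (SE; 0.34 to 2.11; edgeR adjusted p = 0.0438). Without knockout M456 it was 1.02 with adjusted p = 0.36, and without control M379 it was 1.17 with adjusted p = 0.12. Without control F473, M477, M479 or M480 the adjusted p was 0.0632 to 0.0737, and with no batch term the log2 fold change was 0.25 with adjusted p = 0.82.

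**Figure D4:**
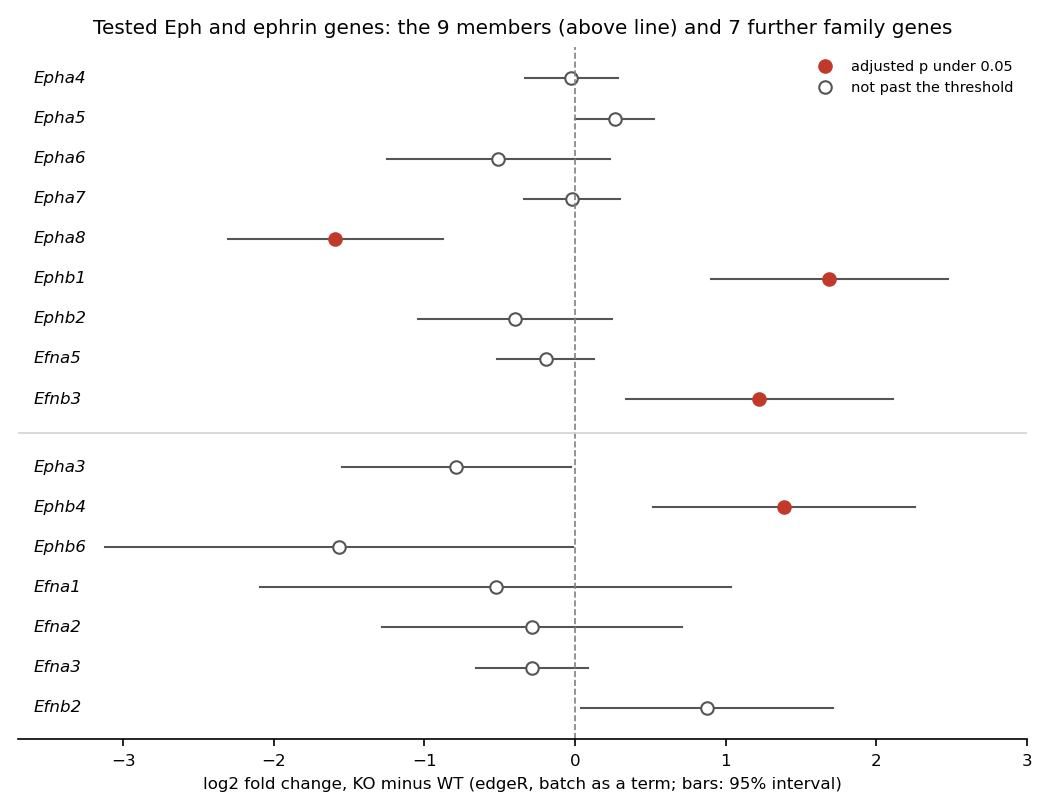
Log2 fold change of knockouts over controls (horizontal axis, KO minus WT, batch as a term) with the 95% interval for the 9 tested genes and 7 further Eph and ephrin genes, filled where the adjusted p is under 0.05. Of the 9, Epha8 lies at -1.59, Ephb1 at 1.69 and Efnb3 at 1.23, and of the 7 only Ephb4, at 1.39, is filled.

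In the controls, the genes also differed between batches. Epha5, Epha7 and Efna5 were lower in the 5 controls of batch 3 than in both controls of batches 1 and 2, by log2 ratios of means of -0.69, -0.52 and -0.82. Epha4, Epha8, Ephb2 and Efnb3 were higher in all 5 controls of batch 3, by 0.30, 1.35, 0.50 and 2.24. Group means that ignore batch therefore mix batch with genotype, since 5 of 7 controls and 1 of 4 knockouts belong to batch 3. Within the 5 controls of batch 3, Epha5 varied least, with a coefficient of variation of 8.20%, and Epha4 followed at 9.69%. Epha6 varied by 37.5%, which is 4.64 times the 8.08% that counting alone gives, and its highest control was 3.23 times its lowest. Epha10 varied most, by 58.9%, where counting alone gives 45.6%. Ephb1 varied by 25.8% and Efnb3 by 29.5%, against 15.5% and 16.1% from counting alone.

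Of 12 further Eph and ephrin genes 7 were tested, 1 rose and 0 fell. This share of 14.3% is below the 24.4% called among all tested genes. The gene that rose was Ephb4, a receptor of ephrin-B2 known from vein endothelium, with 18.3, 12.2, 1.65 and 19.7 CPM in knockouts F371, M374, M390 and M456 and 0.925 to 11.5 CPM in controls. Its values in batch 2 come from 7 reads in knockout M390 and 4 in control M386. The fit put it at 1.39 ± 0.41 on the log2 scale (SE; edgeR adjusted p = 0.0238). It no longer passed when knockout M456 was left out (1.26, adjusted p = 0.24) or control M379 was (1.38, adjusted p = 0.0958). With no batch term it was at 1.14 (adjusted p = 0.16), and Efnb2 passed in its place. Markers of endothelial and mural cells summed to 55.5 to 193 CPM in knockouts and 46.7 to 242 CPM in controls, and their part in this result was not tested. Efnb2, the ligand of Ephb4, had a log2 fold change of 0.88 ± 0.39 (adjusted p = 0.11), Epha3 of -0.79 ± 0.36 (adjusted p = 0.12), Efna3 of -0.29 ± 0.18 (adjusted p = 0.24) and Efna2 of -0.29 ± 0.47 (adjusted p = 0.69).

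Genes that act below Eph receptors were called at about the background rate, mostly as higher. Of 38 listed effectors 36 were tested, 7 rose and 1 fell (22.2%), with a median log2 fold change of 0.19. The Abl kinases moved apart, with Abl2 at 1.17 ± 0.21 (SE, edgeR adjusted p = 0.00297) and Abl1 at -0.81 ± 0.19 (adjusted p = 0.00892). The Src-family kinase gene Yes1 rose by 1.13 ± 0.25 (adjusted p = 0.00675), with 34.2 to 51.7 CPM in knockouts and 10.0 to 33.8 CPM in controls. These ranges did not overlap, as in 13.0% of all tested genes. The groups did not overlap in Nck1, Cdc42 and Crk either, and Crk, at 0.31, did not pass. Rock2, a kinase that acts on contraction of the cytoskeleton, rose by 0.99 ± 0.18 (adjusted p = 0.00313), while Rock1 at 0.68 ± 0.29 did not pass. The Rac activator gene Tiam1 rose by 1.24 ± 0.35, the Rac inhibitor gene Chn2 (beta-chimaerin) by 0.85 ± 0.17, the adaptor gene Nck1 by 0.39 ± 0.12 and the GTPase gene Cdc42 by 0.30 ± 0.09 (adjusted p = 0.0193, 0.00417, 0.0278 and 0.0203). The effectors with the most reads that did not pass had log2 fold changes of 0.00 (Anks1b, an adaptor), 0.21 (Crkl, an adaptor), -0.15 (Chn1, alpha-chimaerin, the Rac inhibitor that Epha4 recruits) and -0.02 (Cdk5, a neuronal kinase). Without knockout M456 the fall of Abl1 was the only call left of these 36, at -1.05. The log2 fold changes of the others were then 1.66 (Tiam1), 0.65 (Chn2), 0.27 (Nck1), 1.13 (Abl2), 0.83 (Yes1), 0.17 (Cdc42) and 1.00 (Rock2), with adjusted p of 0.0599 to 0.29. Without control M379 calls were left for Abl2, Chn2, Rock2 and Yes1. With no batch term Tiam1 (0.56, adjusted p = 0.47) and Chn2 (0.41, adjusted p = 0.32) did not pass, while Crk and Rock1 did.

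Genes of ephrin reverse signalling and of Eph and ephrin cleavage had 13 of 14 members tested, 0 rose and 2 fell. This was 15.4%, against 24.4% of all tested genes, and the median log2 fold change was -0.12. Rgs3, which links ephrin-B to heterotrimeric G proteins, fell by 1.32 on the log2 scale (SE 0.33, edgeR adjusted p = 0.0108), but its log2 ratio in batch 2 was 0.05. It did not pass when knockout M456 (adjusted p = 0.15) or control M379 (adjusted p = 0.12) was left out. Sdcbp (syntenin), Pard6a, Pick1 and Adam10 (the protease that sheds ephrins) did not pass, with log2 fold changes of -0.12, -0.04, -0.05 and 0.11.

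The calls of Epha8, Ephb1 and Efnb3, like those of all other genes, were lost when a covariate for depth or for other cell types was added. With the log2 library total as a covariate their log2 fold changes were -1.93, 2.29 and 1.13 (edgeR adjusted p = 0.25, 0.24 and 0.49). A score of purity, which takes the mean log2 CPM over granule cell, Bergmann glia, astrocyte and oligodendrocyte markers from that over Purkinje cell markers, was 2.27 to 3.58 in knockouts and 2.93 to 3.84 in controls. With it as a covariate the log2 fold changes were -2.76, 1.08 and 0.79 (adjusted p = 0.48, 0.64 and 0.77). In both fits 0 of 13375 genes passed by edgeR, where 1841 and 1131 had an unadjusted p under 0.05. Within each batch every knockout had fewer reads in genes and a lower purity score than every control. With batch in the model, genotype and either covariate can therefore hardly be told apart, and the lost calls say little about these genes. Thinned to the smallest library, the 3 genes kept their calls, at -1.61, 1.64 and 1.46 (adjusted p = 0.00324, 0.00847 and 0.0263).

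**Figure D5:**
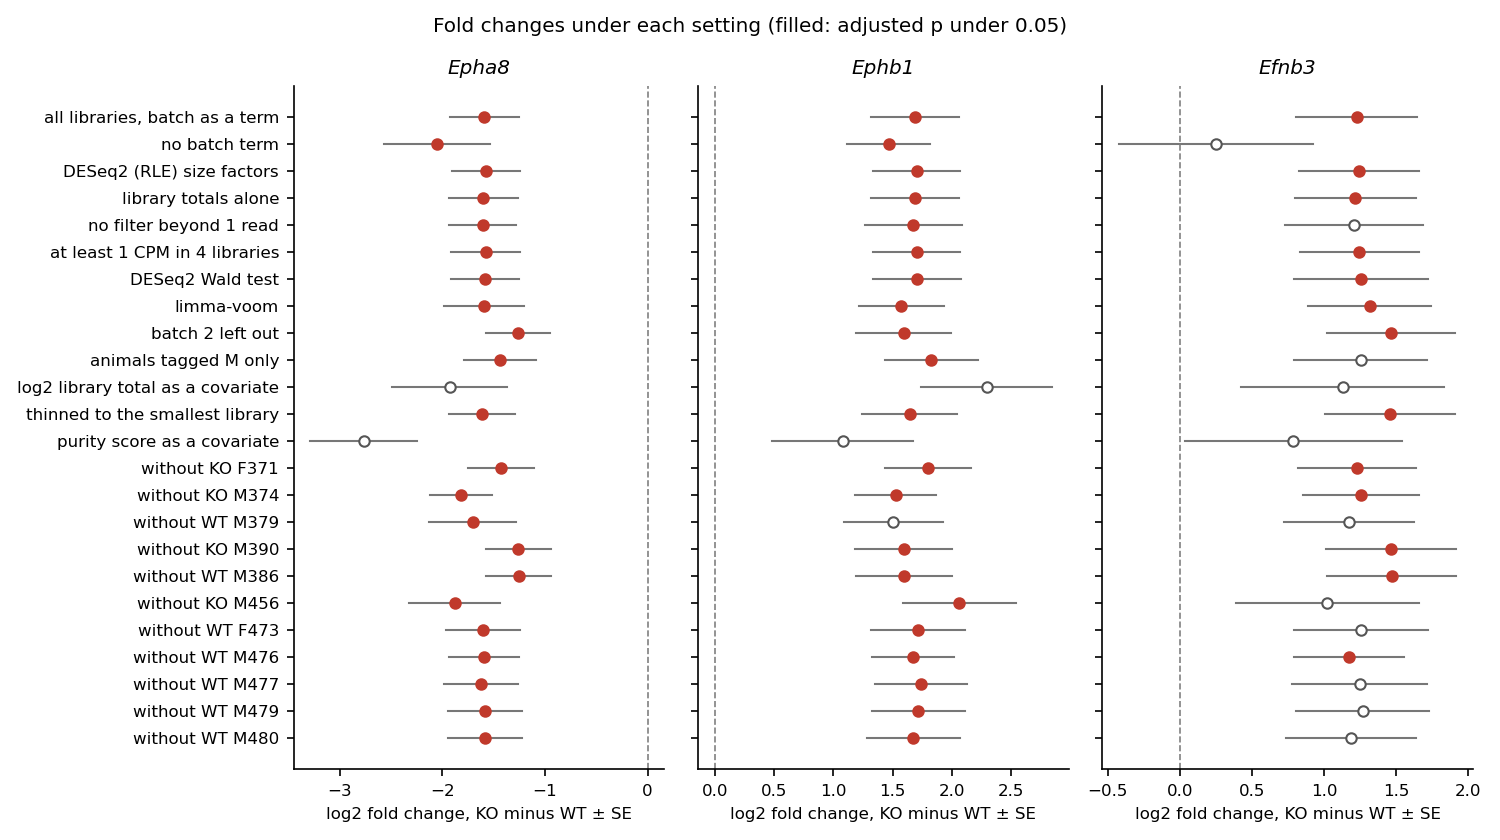
Log2 fold change of knockouts over controls (horizontal axis, KO minus WT) ± SE for Epha8, Ephb1 and Efnb3 under each setting (1 per row), filled where the adjusted p is under 0.05. Signs hold in every row, Epha8 runs from -2.76 to -1.26 and Ephb1 from 1.08 to 2.29, and Efnb3 is filled in 12 of 23 alternatives.

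For each of the 3 called genes, the genes with the most similar pattern were named by Pearson correlation of log2 CPM over the 11 libraries, among 10894 genes. All libraries, batches and depths are shared by these values, so the correlations are descriptions. Epha8 was most like Tut1 (r = 0.98), Telo2 (0.98) and B4galnt1 (0.97). Ephb1 was most like Kif5b (0.96), Hook1 (0.95) and Pik3r1 (0.95). Efnb3 was most like Pcdh9 (0.98), Rapgef5 (0.95) and Mnt (0.95). These genes did not pass the test themselves (edgeR adjusted p = 0.18, 0.26 and 0.098). The genes named for Epha8 and Ephb1 all passed, at adjusted p of 0.0033 to 0.0323, against 24.4% of all tested genes. They were picked for likeness to called genes in the same libraries, so their passing is no separate result.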

How the data were processed

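Ribosome-bound RNA of 11 libraries was analysed. The deposited values are raw read counts per gene in whole numbers, 1 file per library, made with STAR on GRCm38 and HTSeq per the submitters' processing notes. For their versions, options and strand setting nothing is given in the sources used here. All 5 summary lines that name no gene stayed out of totals and tests; reads outside genes, ambiguous reads and reads at several places were not used.

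Testing used edgeR 4.0.16 under R 4.3.3 (filterByExpr on group, TMM factors, quasi-likelihood fit with batch and genotype, 7 residual degrees of freedom, two-sided, Benjamini-Hochberg over 13375 genes). Alternatives used DESeq2 1.42.0 and limma 3.58.1. A standard error is the fold change over the root of its F statistic. Batches were not tested alone. Nothing beyond the animal tags says that libraries are replicates. Chi-square per degree of freedom between libraries was 2.46 or more, so none was counted as a copy. Exon lengths were not available, so the planned comparison of levels between genes was not made; ratios of reads between genes are compared only from library to library.

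Members and lists were chosen with earlier results of these data known. Named were the members, every listed gene that passed except 1 that is not reported here, the 4 others of each list with the most reads, and the 3 genes most like each called member with at least 5 mean CPM and no predicted-gene symbol; Rock1, Crk and the C1q genes were added after their values were seen. Reads were not collapsed by molecular identifiers, so they are not independent molecules, and floors cover counting error only.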

Additional observations from a re-analysis of the deposited data

Results flagged for a closer look

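Of 20 groups of values looked at (10 genes in knockouts and in controls), 3 held a library far from the others; chance flags about 1 in 20 groups of like samples, a rate that may not hold here, since the groups mix 3 batches with different levels. Knockout M374 had 34.7 CPM of Ephb2, where the other 3 knockouts had 15.8 to 17.7 CPM. Control M476 had 42.8 CPM of Ephb2, where the other 6 controls had 21.9 to 30.4 CPM. Knockout M456 had 22.1 CPM of Efnb3, where the other 3 knockouts had 2.67 to 3.78 CPM; M456 is the only knockout of batch 3, and the controls of that batch were also higher in Efnb3 than those of batches 1 and 2.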

How the results depend on the processing

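Of the 10 genes, the count called was 3 with batch as a term, 3 without it (no replicate block, where Epha5 at 0.55 replaced Efnb3), 0 with the library total or the purity score as a covariate, and 1 to 4 with each library left out, 1 without control M379. The library total and the purity score also took to 0 the count of all genes (from 3257), further family genes (from 1), effectors (from 8) and ephrin partners (from 2). A threshold of 0.01 left 1271 genes in all, 0 further family genes, 5 effectors and 1 ephrin partner. With each library left out, all genes (3353 without the batch term) ranged from 335 (without knockout M456) to 4649 (without knockout M390), with 522 without control M379. Over the same refits further family genes ranged from 0 to 2, effectors from 1 to 12 and ephrin partners from 1 to 2. Of the further family genes, 0 passed in animals tagged M only and 2 without batch 2.

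Signs turned only in genes that did not pass. Epha7 was at 0.16 without the batch term (no replicate block), 0.0636 without batch 2, 0.0568 in animals tagged M, 0.0424 with the library total and 0.0036 thinned. Epha4 was at 0.0119 without batch 2 and 0.16 with the purity score, and Epha6 at 0.41 with the library total. With each library left out Epha4 ranged from -0.10 to 0.0921 and Epha7 from -0.0943 to 0.067. The cause was not tested. Other scalings moved the median of all genes by under 0.02. Depth limits Epha10.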
